A study of Mus musculus with 4 samples.

Results

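The replication-dependent histone genes were examined as 67 of the 22367 protein-coding genes in GENCODE vM1, the gene annotation of the mm9 mouse genome. They were chosen by symbol alone, as every gene whose symbol starts with Hist1h, Hist2h, Hist3h or Hist4h. By class there were 6 linker H1 genes, 19 H2A genes, 18 H2B genes, 11 H3 genes and 13 H4 genes. By position, 23 lay in the left stretch of the Hist1 cluster on chr13, 31 in its right stretch, and Hist1h2al stood alone further along chr13. The Hist2 cluster on chr3 held 9, the Hist3 pair lay on chr11, and Hist4h4 was on chr6.

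The study used chromatin immunoprecipitation with sequencing (ChIP-seq) in E14TG2a.4 mouse embryonic stem cells, a feeder-independent line kept on gelatin with LIF. Of its 4 libraries, 1 was an H3K4me3 ChIP from cells carrying a lentiviral shRNA against Jarid1b, and 1 was an H3K4me3 ChIP from cells carrying a scramble shRNA. Both shRNA lines were made with the PLKO.1 vector and selected with puromycin, and both H3K4me3 libraries used the C42D8 rabbit antibody. The other 2 libraries were Jarid1b ChIPs from E14 cells, labelled replicates 1 and 2. Jarid1b, encoded by Kdm5b, is a demethylase of histone H3 lysine 4, and the trimethylated form (H3K4me3) marks the promoters of active genes. No label gives the level of Jarid1b left in the shRNA cells, and reads at the Kdm5b promoter do not measure it.

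Replication-dependent histone genes supply the bulk of new histone protein while DNA is copied. Most lack introns, and their mRNAs end in a stem-loop instead of a poly(A) tail. The coactivator NPAT and factors bound at the octamer and other short promoter elements drive them in S phase. The core histones H2A, H2B, H3 and H4 form the nucleosome, and linker H1 binds the DNA between nucleosomes.

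The proximal promoters of the members on which the results below turn are shown first. They are those with the most scramble H3K4me3 reads in each class, together with Hist1h1t and Hist1h2ba, which are known for expression in testis. Each line holds the 150 bases upstream of the RefSeq gene start (RefSeq sequences, GRCm38.p6), read 5′ to 3′ along the gene. The coordinates are those of the exact match in NCBIM37, the assembly of mm9. The Hist2h3c1 stretch lies downstream of the GENCODE start used for counting. Most of it is outside the window in which its reads were counted, which ends at chr3:96050476. Capitals mark 4 short elements on either strand. The TATA box was searched as TATAAA. For the CCAAT box the letters were CCAAT. The octamer, the site of POU factors such as Oct1, was ATTTGCAT. For the GC box the search used GGGCGG.

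Hist1h1b, chr13:21872495-21872644, minus strand: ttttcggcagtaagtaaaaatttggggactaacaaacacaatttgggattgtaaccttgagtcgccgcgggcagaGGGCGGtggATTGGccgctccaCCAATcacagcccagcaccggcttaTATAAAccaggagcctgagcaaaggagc
Hist2h2aa1, chr3:96049270-96049419, plus strand: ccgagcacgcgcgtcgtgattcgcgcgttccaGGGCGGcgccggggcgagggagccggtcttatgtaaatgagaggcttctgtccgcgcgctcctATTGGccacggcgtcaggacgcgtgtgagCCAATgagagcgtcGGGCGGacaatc
Hist2h2bb, chr3:96073473-96073622, plus strand: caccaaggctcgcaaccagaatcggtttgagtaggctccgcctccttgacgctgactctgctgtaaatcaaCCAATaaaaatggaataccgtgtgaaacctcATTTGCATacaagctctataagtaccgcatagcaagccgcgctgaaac
Hist2h3c1, chr3:96050458-96050607, plus strand: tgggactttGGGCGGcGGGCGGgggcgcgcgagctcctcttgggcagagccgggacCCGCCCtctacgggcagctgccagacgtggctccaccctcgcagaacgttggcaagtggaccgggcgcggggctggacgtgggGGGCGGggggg
Hist4h4, chr6:136752953-136753102, minus strand: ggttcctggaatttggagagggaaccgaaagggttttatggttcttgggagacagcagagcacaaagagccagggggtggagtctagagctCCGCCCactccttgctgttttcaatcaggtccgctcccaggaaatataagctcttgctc
Hist1h1t, chr13:23787530-23787679, plus strand: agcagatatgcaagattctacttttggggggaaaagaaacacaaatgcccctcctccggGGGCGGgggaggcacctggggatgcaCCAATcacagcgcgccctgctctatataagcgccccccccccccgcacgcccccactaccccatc
Hist1h2ba, chr13:24026026-24026175, minus strand: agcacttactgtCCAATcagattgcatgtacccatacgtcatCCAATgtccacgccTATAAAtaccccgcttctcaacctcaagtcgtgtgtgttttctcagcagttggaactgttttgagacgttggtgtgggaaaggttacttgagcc

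The Hist2h2aa1 stretch matched NCBIM37 at 2 places, the second at chr3:96044258-96044407 on the minus strand, where an inverted copy carries Hist2h2aa2. Across classes the elements were unevenly spread. Of the 67 members 60 could be matched to the RefSeq promoter table, and the 250 bases upstream of each start were searched on both strands. A gene with several promoter entries counted once, when any of them held the letters. The octamer stood in 14 of these 60 promoters (23.3%), against 1.81% of 27025 RefSeq genes. It was found in 7 of 17 H2A and 7 of 16 H2B promoters, and in no H1, H3 or H4 promoter searched. CCAAT stood in 50 of 60 (83.3% against 37.5%), including every H1, H2A and H2B promoter searched but only 3 of 12 H4 promoters. GGGCGG stood in 9 of 12 H4 promoters and 0 of 16 H2B promoters, and in 19 of 60 members in all (31.7% against 35.4%). TATAAA stood in 29 of 60 (48.3% against 14.3%). A match says only that these letters are present.

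After 1 read was kept per strand and position, the Jarid1b shRNA H3K4me3 library held 2635705 reads and the scramble library 5158330, and the Jarid1b libraries held 4336767 and 1602370. Reads were counted in a window of 1 kb on each side of the transcription start site (TSS), where the genome-wide rate alone would give 2.06 reads in the Jarid1b shRNA library and 4.03 in the scramble library. The stem cell identity of the lines was checked on promoters of Pou5f1, Sox2, Nanog, Esrrb, Zfp42 and Klf4. H3K4me3 was enriched at 4 of these 6 in the Jarid1b shRNA library and at 5 of 6 in the scramble library, while Esrrb had 0 and 3 reads. Levels of these markers also differed between the libraries. Nanog had 55 reads in the Jarid1b shRNA library and 247 in the scramble library (log2 ratio of reads per library size -1.20), Zfp42 had 21 and 110 (-1.42) and Pou5f1 127 and 396 (-0.67). Sox2 and Klf4 went the other way, Sox2 with 149 and 241 reads (0.275, with an interval that includes 0) and Klf4 with 136 and 153 (0.80). With the GC trend removed the ratios of Nanog, Zfp42 and Pou5f1 were -0.48, -0.52 and -1.02, and those of Sox2 and Klf4 were -0.52 and -0.12. The part of these differences in the histone values was not tested. Of 12 promoters of genes typical of other cell types, 2 were enriched in the Jarid1b shRNA library and 1 in the scramble library, and none had more than 19 reads in either. Each condition had 1 H3K4me3 library, so no comparison between conditions has a replicate check. Intervals are 95% intervals of counting error only, since the reads carry no molecular identifiers and need not be independent molecules. Reads come from many cells at once, so the share of cells with the mark and its amount per cell cannot be told apart.

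The genes are packed so closely that windows overlap, and many are near-identical copies. The 67 windows merged into 40 loci, of which 20 held 1 gene, and the other 47 genes shared loci of up to 3 genes. Summed over windows there were 3928 reads in the Jarid1b shRNA library and 8083 in the scramble library, but counted once each there were 2687 and 5695. These made up 0.102% and 0.110% of the reads of the Jarid1b shRNA and scramble libraries, in 0.00391% of the genome. A median of 75.6% of the 34-base words starting in a window occurred once in the genome. For 6 members, Hist1h2bq, Hist1h2ao, Hist1h4m and their second copy Hist1h4n, Hist1h2ap and Hist1h2br, the share was under 5%. Reads at these places could come from either copy. The copy with Hist1h2bq held 100 reads in the Jarid1b shRNA library and 244 in the scramble library, and the copy with Hist1h2br held 112 and 229. In Hist2 the unique share was 41.7% for Hist2h2aa1, 41.8% for Hist2h2aa2 and 40.9% for Hist2h3c1. Part of the reads counted for these 3 could therefore also come from another copy.

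Nearly all the histone promoters carried H3K4me3 in both lines. A promoter was called enriched when its reads exceeded a Poisson expectation from the genome-wide density or from the density 10 kb to each side, whichever was higher, with a Benjamini-Hochberg adjusted p under 0.05 over all 22367 windows. By this rule 63 of 67 were enriched in the Jarid1b shRNA library (59.9% of all promoters) and 64 of 67 in the scramble library (60.1% of all promoters). Hist1h1t and Hist1h4b passed in neither, Hist1h2bh and Hist1h4d not in the Jarid1b shRNA library, and Hist1h2ab not in the scramble library. The median histone promoter had 59 reads in the Jarid1b shRNA library and 122 in the scramble library, while the median over all promoters with scramble H3K4me3 was 62 and 90. In the scramble library 56 of the 67 lay above that 90.

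**Figure D1:**
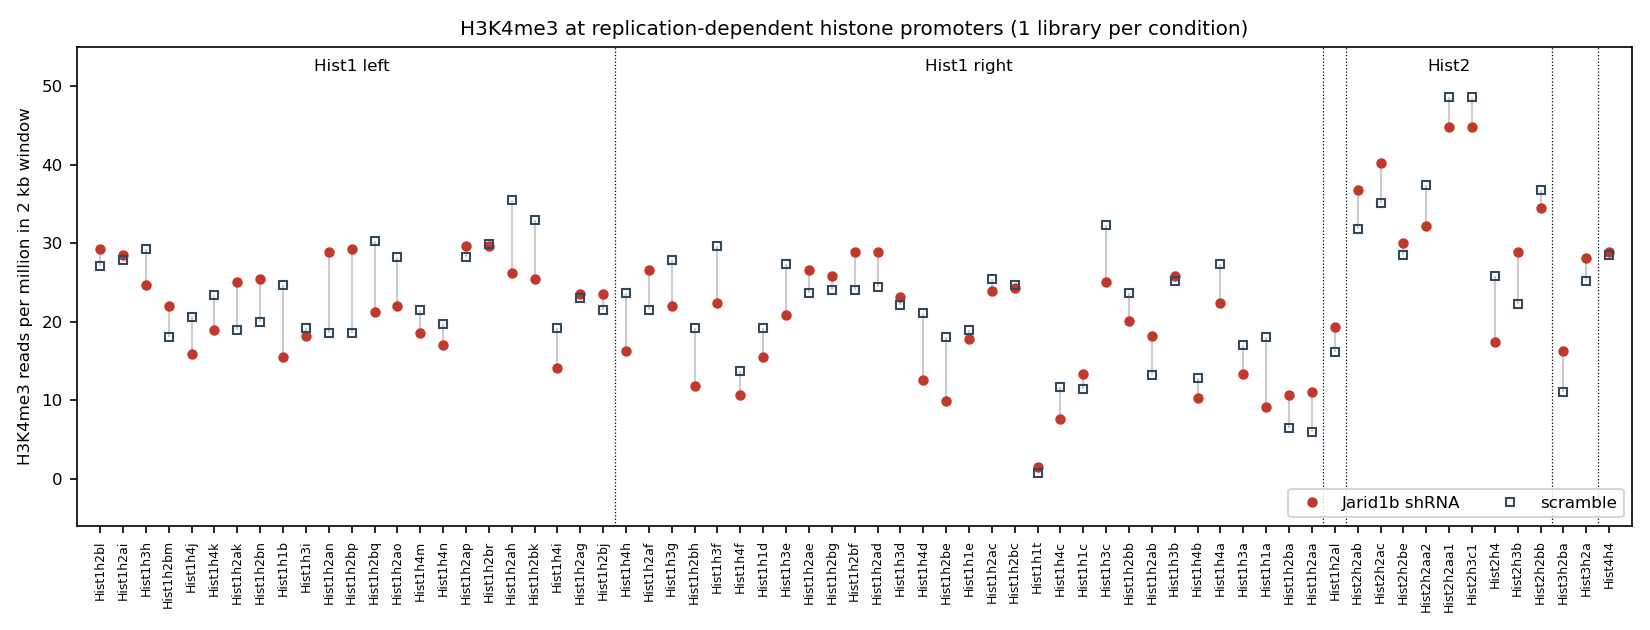
H3K4me3 RPM (reads per 1000000 reads kept) in the 2 kb window of each of the 67 histone promoters, ordered along the chromosomes, for the Jarid1b shRNA library (filled circles) and the scramble library (open squares), 1 library each; dotted lines part the stretches, and the rightmost 2 hold the Hist3 pair and Hist4h4. Hist1h1t is near 0 in both libraries, and Hist2h2aa1 and Hist2h3c1, whose windows nearly coincide, are at the top.

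Among the linker genes, Hist1h1b (chr13:21871494-21873493) had the most scramble reads, with 41 in the Jarid1b shRNA library and 127 in the scramble library. Hist1h1t, the testis linker histone, had 4 reads in each library and was enriched in neither. It was the lowest of all 67 in both libraries, and its window holds no repeated word. Of the H2A genes, Hist2h2aa1 (chr3:96048461-96050460) led with 118 reads in the Jarid1b shRNA library and 251 in the scramble library, and Hist1h2aa was lowest with 29 and 31. Of the H2B genes, Hist2h2bb had 91 and 190 reads in the Jarid1b shRNA and scramble libraries, and Hist1h2ba had 28 and 33, the fewest of the class in the scramble library, while Hist1h2be had the fewest in the Jarid1b shRNA library with 26. Hist1h2aa and Hist1h2ba, both known from testis, lie head to head and share most of their reads. Their level was low in the scramble library but they were enriched in both libraries.

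Of the H3 genes, Hist2h3c1 had 118 reads in the Jarid1b shRNA library and 251 in the scramble library, from a window almost identical to that of Hist2h2aa1, and Hist1h3a had the fewest, 35 and 88. The annotated start of Hist2h3c1 lies 1197 bases from its start codon, and a window centred on the codon held 122 and 282 reads in the Jarid1b shRNA and scramble libraries. Of the H4 genes, Hist4h4 (chr6:136751900-136753899) had 76 and 147 reads in the Jarid1b shRNA and scramble libraries, and Hist1h4c the fewest, 20 and 60. Hist1h4b, with 27 reads in the Jarid1b shRNA library and 66 in the scramble library, was enriched in neither by the local rule. Against the genome rate alone 66 of 67 were enriched in each library, Hist1h4b among them (62.4% of all promoters in the Jarid1b shRNA library and 62.6% in the scramble library). The local rate within the clusters includes reads of neighbouring histone promoters.

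By position, Hist2 promoters had the highest levels, with a median of 34.5 RPM in the Jarid1b shRNA library and 35.1 in the scramble library. The left Hist1 stretch had medians of 23.5 and 23.1 in the Jarid1b shRNA and scramble libraries, and the right stretch 18.2 and 21.5. Within Hist2, Hist2h2ac had 106 and 181 reads, Hist2h2ab 97 and 164, Hist2h2aa2 85 and 193, and Hist2h2be 79 and 147, in the Jarid1b shRNA and scramble libraries. Hist2h3b had 76 and 115 reads, and Hist2h4 was lowest of the Jarid1b shRNA library's Hist2 counts with 46, against 133 in the scramble library. The Hist3 pair differed, Hist3h2a with 74 and 130 reads and Hist3h2ba with 43 and 57 in the Jarid1b shRNA and scramble libraries.

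Between the lines, no histone promoter reached a 2-fold difference in H3K4me3 beyond its counting interval. The ratio is log2 of RPM in the Jarid1b shRNA library over the scramble library. It was taken where a promoter was enriched in at least 1 of the libraries and their summed reads came to at least 20. Of 65 histone promoters compared, 0 were at least 2-fold higher with an interval excluding 0 (24.2% of 13284 promoters compared were) and 0 were at least 2-fold lower (2.41% of all). The median histone ratio was -0.09, and the median over all compared promoters 0.41. The ratio moves with base composition. Over the 7611 compared promoters within the histone promoters' GC range of 42.65% to 55.7%, the median was 0.06, with 9.6% higher and 3.67% lower. Of the 65, 36 lay below 0 and 59 below the median of all. At 1.5-fold, 3 were higher (38.5% of all) and 5 lower (7.97% of all). Scaled so that the median ratio of all promoters is 0, 6 histone promoters were 2-fold lower (8.97% of all). With the GC trend over all promoters removed, 8 were 2-fold higher (17.2% of all) and 0 lower (0.407% of all). That removal keeps the general level, with a median of 0.38 over all compared promoters and 0.31 over the histone promoters.

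The 3 higher at 1.5-fold were Hist1h2aa, Hist1h2bp and Hist1h2an, and the last 2 lie head to head. Hist1h2aa had 29 reads in the Jarid1b shRNA library and 31 in the scramble library, a log2 ratio of 0.87 (0.09 to 1.65), and was the highest of the 65. Within 500 bases of its start it had 7 and 14 reads in the Jarid1b shRNA and scramble libraries (-0.03), and in the outer part 22 and 17 (1.34). Its neighbour Hist1h2ba had a ratio of 0.73, with an interval that includes 0. Hist1h2bp had 77 and 96 reads in the Jarid1b shRNA and scramble libraries (0.65, 0.20 to 1.10), and Hist1h2an 76 and 96 (0.63, 0.18 to 1.08). At positions unique in the genome the direction of both turned, with 13 and 33 reads for Hist1h2bp (-0.38) and 12 and 33 for Hist1h2an (-0.49) in the Jarid1b shRNA and scramble libraries. Hist3h2ba at 0.56 and Hist1h2ab at 0.47 came next, and both had intervals that include 0.

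The 5 lower at 1.5-fold were Hist1h1a, Hist1h2be, Hist1h4d, Hist1h2bh and Hist1h1b. Hist1h1a had 24 reads in the Jarid1b shRNA library and 93 in the scramble library, the lowest ratio of the 65 at -0.99 (-1.70 to -0.33). Hist1h2be had 26 and 93 reads in the Jarid1b shRNA and scramble libraries (-0.87, -1.56 to -0.23), but its annotated start lies 35168 bases from its start codon, next to Hist1h1e. Around its start codon it had 35 and 95 reads, a ratio of -0.47 with an interval from -1.08 to 0.10. Hist1h4d had 33 and 109 reads in the Jarid1b shRNA and scramble libraries (-0.76), Hist1h2bh 31 and 99 (-0.71) and Hist1h1b 41 and 127 (-0.66). Hist1h4c followed at -0.62, with an interval that includes 0. With the GC trend removed the direction turned in 3 of the 5, to 0.13 in Hist1h4d, 0.23 in Hist1h2bh and 0.05 in Hist1h1b, and the ratios of Hist1h1a and Hist1h2be were -0.30 and -0.02. All 5 then still lay below the median of 0.38 over all compared promoters. Within 500 bases of its start Hist1h1b had 30 reads in the Jarid1b shRNA library and 49 in the scramble library, a ratio of 0.26.

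**Figure D2:**
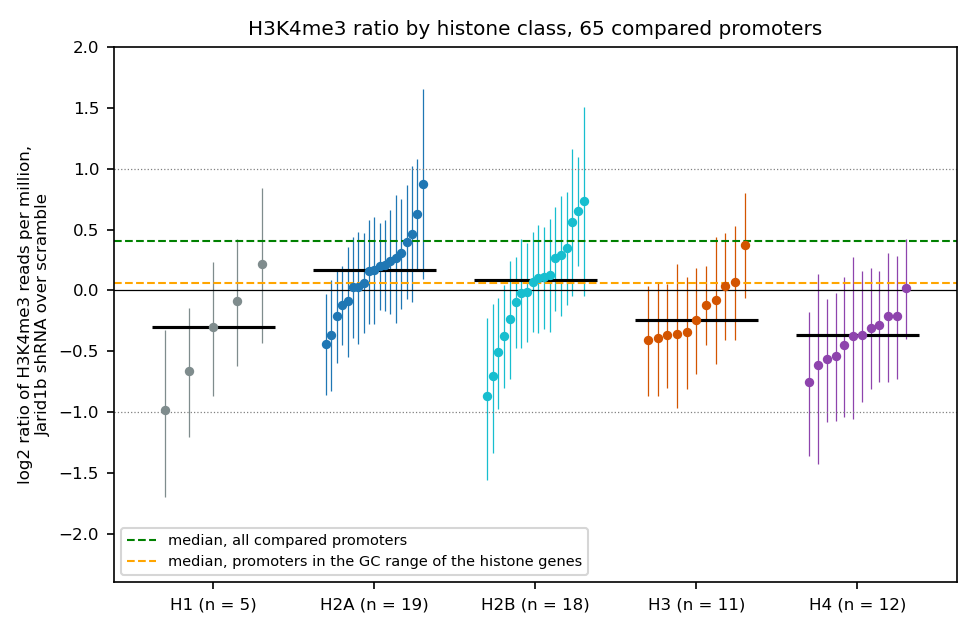
Log2 ratio of H3K4me3 RPM, Jarid1b shRNA over scramble, for the 65 compared histone promoters by class; points are promoters with 95% counting intervals, black bars are class medians, dashed lines are the medians of all compared promoters and of those in the histone GC range, and dotted lines mark 2-fold. Medians of H2A and H2B lie above 0, those of H1, H3 and H4 below it, and no point is called at 2-fold.

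By class, the whole-window ratios of H2A and H2B stood above those of H1, H3 and H4. The median ratio was 0.17 for 19 H2A promoters, 0.09 for 18 H2B, -0.25 for 11 H3, -0.37 for 12 H4 and -0.30 for 5 H1, and 11 of the 12 H4 promoters lay below 0. Ranges overlapped among all 5 classes, from -0.76 to 0.02 in H4 and from -0.44 to 0.87 in H2A. The promoters share libraries and, where windows overlap, reads, so no test was made. Median GC content followed the same order in part, with 51.1% in H2A, 50.1% in H2B, 48.2% in H1, 47.3% in H3 and 46.1% in H4. With the genome-wide trend of the ratio on GC content removed, the median over all compared promoters was 0.38. Class medians were then 0.42, 0.47, 0.32, 0.22 and 0.28 for H2A, H2B, H3, H4 and H1. At positions whose 35-base word is unique they were -0.47, -0.61, -0.73, -0.71 and -0.64 in the same order. Every class median was then below 0.

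By stretch, the medians were -0.08 in the left and -0.23 in the right Hist1 stretch and -0.09 in Hist2. Hist1h2al stood at 0.27, Hist4h4 at 0.02 and the Hist3 pair at a median of 0.36. The order of the Hist1 stretches turned under both alternatives, with medians of 0.28 in the left and 0.36 in the right stretch once the GC trend was removed, and of -0.93 and -0.69 at unique positions. With overlapping windows merged, the median over 38 compared loci was -0.09 and 23 lay below 0.

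Within the windows, reads peaked downstream of the start in both lines, at 75.1 times the genome rate 150 bases downstream in the Jarid1b shRNA library and at 61.6 times it 250 bases downstream in the scramble library. Just upstream of the start the density dropped to 4.64 and 6.96 times the genome rate in the Jarid1b shRNA and scramble libraries. At other promoters with scramble H3K4me3 the lowest density in the same stretch was 24.6 times the genome rate in the Jarid1b shRNA library and 17 times it in the scramble library. A further rise upstream reached 34.2 times the genome rate 550 bases from the start in the Jarid1b shRNA library and 30.7 times it 450 bases from the start in the scramble library. At the 20 promoters with no other histone start within 2 kb, the highest values over those bases were 11.2 and 12.4. The other promoters plotted are the 13356 with fewer than 100 reads in Jarid1b replicate 1, since a few with very many reads set the mean.

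**Figure D3:**
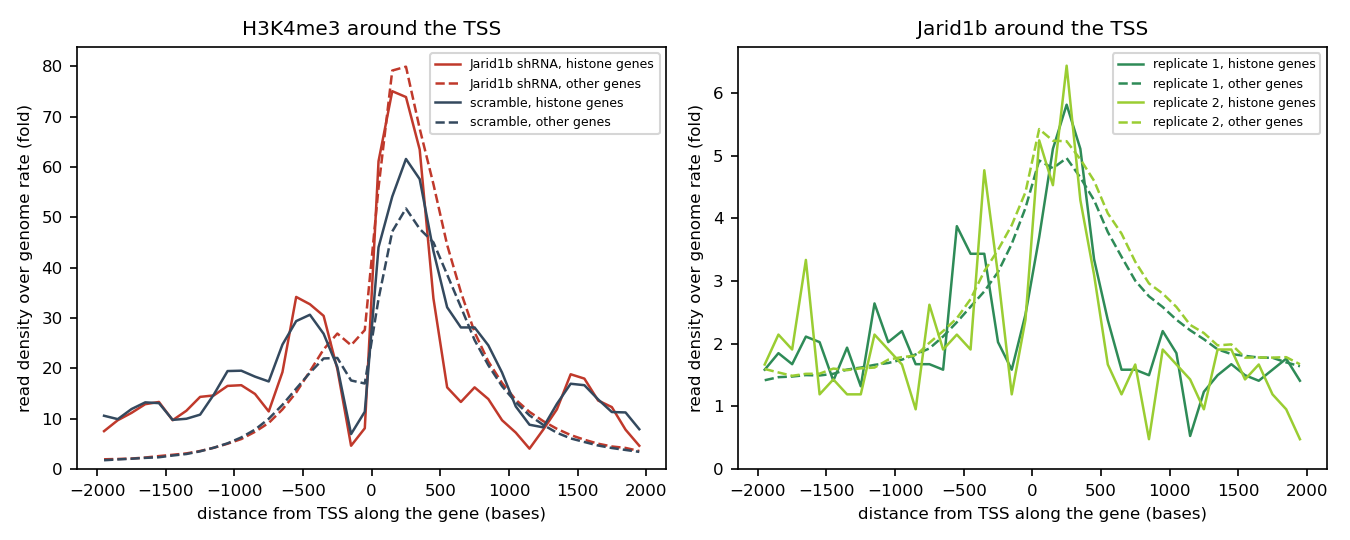
Read density over the genome rate by distance from the TSS along the gene, in 100-base bins, for H3K4me3 (left) and Jarid1b (right), at histone genes (solid) and other promoters with scramble H3K4me3 (dashed). The Jarid1b shRNA curve of histone genes reaches 75.1 and lies below the scramble curve from 450 to 1350 bases downstream, and Jarid1b peaks near 6 times the genome rate.

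Summed over all members, the ratio was highest just after the start and lowest beyond 500 bases downstream. In the first 250 bases the 67 windows held 1229 reads in the Jarid1b shRNA library and 1733 in the scramble library, a log2 ratio of 0.47 (0.37 to 0.58). From 500 bases on, the next 250 bases held 262 and 999 reads, a ratio of -0.96 (-1.16 to -0.76), and the 250 bases from 750 on held 217 and 786, a ratio of -0.89 (-1.11 to -0.67). Other promoters had ratios of 0.72, 0.16 and 0.05 in these 3 bins. The 20 histone promoters with no other histone start within 2 kb had 0.36, -1.37 and -0.95, so the pattern was also present without overlapping windows. Classes differed in it. H2A and H3 were highest in the first 250 bases, at 0.95 and 0.81, but H2B had -0.23 there and its highest ratio, 0.67, in the bin from 500 to 250 bases upstream. Many H2B starts lie head to head with an H2A start, so that bin holds reads that also count downstream of the H2A start. The H2B read density itself peaked 450 bases upstream, at 71.7 and 55.4 times the genome rate in the Jarid1b shRNA and scramble libraries. In H4 the lowest bin was upstream, -1.32 from 750 to 500 bases before the start.

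**Figure D4:**
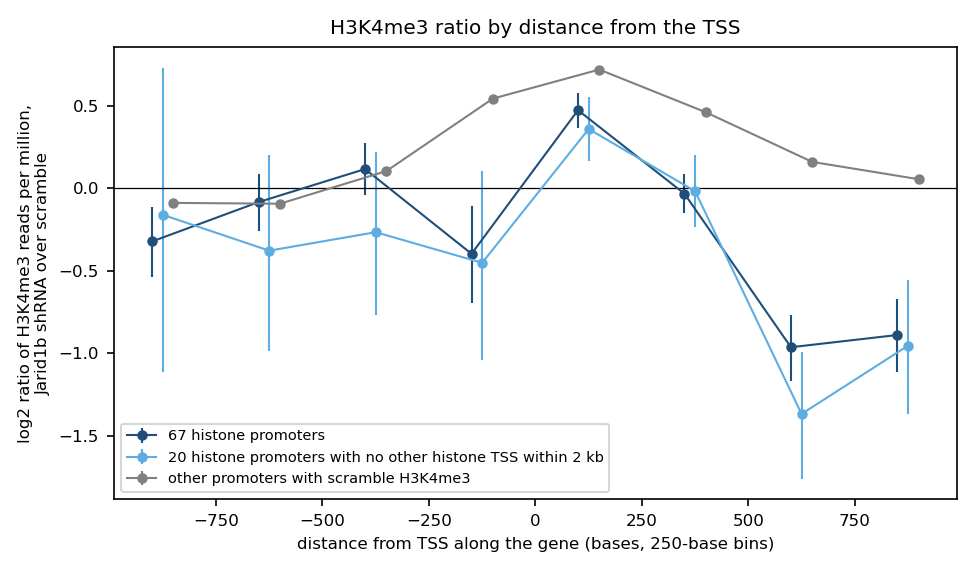
Log2 ratio of H3K4me3 RPM, Jarid1b shRNA over scramble, in 250-base bins of distance from the TSS, for all 67 histone promoters, the 20 with no other histone TSS within 2 kb, and other promoters with scramble H3K4me3; bars are 95% counting intervals, and reads in overlapping windows count in each. Both histone curves are highest in the first 250 bases downstream and lowest in the bin that starts at 500.

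Gene by gene, 60 compared members had at least 20 reads both within 500 bases of the start and in the outer part of the window. Their median ratio was 0.15 in the centre and -0.54 in the outer part, and the centre was above the outer part in 51 of them (85%). Over 9494 compared promoters the medians were 0.49 and -0.05, with the centre above the outer part in 73.1%. The centre held a median of 72.8% of a histone promoter's reads in the Jarid1b shRNA library and 60.4% in the scramble library. Over the 9494 promoters these shares were similar, 71.4% and 63.0%. The order of the centre and outer ratios held in every class, with 14 of 17 H2A, 13 of 16 H2B, 10 of 11 H3, 10 of 11 H4 and 4 of 5 H1 promoters having the centre above the outer part.

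Repeated sequence moved with these values. Counted once each, 59.7% of the histone reads of the Jarid1b shRNA library and 47.7% of those of the scramble library lay at positions whose 35-base word occurs more than once in the genome, which are 25.9% of the positions. The ratio was 0.21 (0.12 to 0.30) at repeated positions and -0.49 (-0.59 to -0.39) at unique positions. At 496 other promoters of chr13 with scramble H3K4me3 the order was the reverse, -0.17 at repeated and 0.45 at unique positions, with 2.10% and 3.19% of the reads of the Jarid1b shRNA and scramble libraries at repeated positions. At unique positions alone the histone ratio was 0.20 (0.01 to 0.40) in the first 250 bases and -1.10 (-1.29 to -0.91) from 500 bases to the window's end. At repeated positions these ratios were 0.55 (0.42 to 0.68) and -0.55 (-0.81 to -0.30), so the fall along the gene was seen at both. Repeated positions held 71.1% and 65.9% of the reads of the Jarid1b shRNA and scramble libraries in the first 250 bases. From 500 bases on they held 37.6% and 29.3%, so the whole-window contrast also mixes in distance from the start. The sources used here do not say how the aligner placed reads with several matches, and its part in the difference was not tested.

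Jarid1b reads were few at histone promoters, with medians of 8 and 3 in replicates 1 and 2, as over all promoters. No histone promoter passed in both libraries. The 2 Jarid1b files share many positions. Of replicate 2's plus-strand positions 16.8% recur in replicate 1, which is 9.52 times the median at other offsets, and 19.8% of minus-strand positions recur at an offset of 8 bases. They were therefore counted as 1 sample and are given side by side. Of 67 histone promoters, 0 were enriched in both (7.8% of all promoters), 20 in replicate 1 (26.8% of all) and 5 in replicate 2 (10.5% of all). At an unadjusted Poisson p under 0.05 in both, 8 were (11.9%, against 17.3% of all promoters). On pooled reads 37 were enriched (34.6% of all), and against the genome rate alone 10 were in both (24.8% of all). The median fold over the genome rate was 2.36 in replicate 1 and 2.40 in replicate 2, the same as the medians over all promoters. At promoters with scramble H3K4me3, as nearly all histone promoters are, these medians were 2.95 and 3.19. Of those 13434 promoters 5684 were enriched in replicate 1, 2263 in replicate 2 and 1701 in both. On pooled reads 54.0% of those promoters were enriched, against 55.2% of the histone promoters. Replicate 2's expectation is 1.25 reads a window, so a promoter there rests on a handful of reads.

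**Figure D5:**
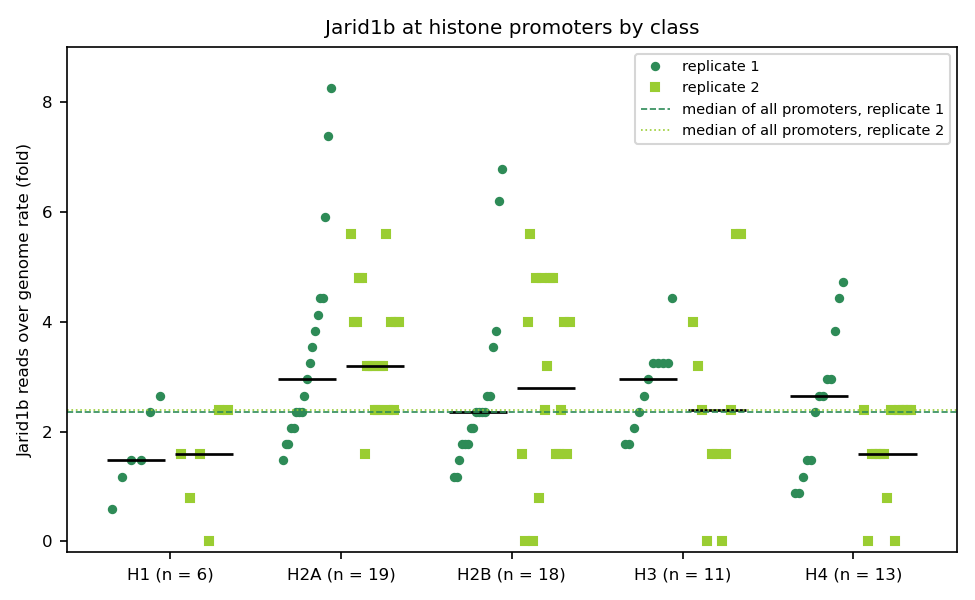
Jarid1b reads over the genome rate in the 2 kb window of each histone promoter by class, replicate 1 (circles) and replicate 2 (squares), with class medians as black bars and the medians of all promoters as dashed and dotted lines. Hist3h2a is the highest point in replicate 1 at 8.26, and H1 promoters have the lowest class median there.

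The histone promoter with the highest mean Jarid1b fold was Hist3h2a (chr11:58767187-58769186), which had 28 reads in replicate 1 (8.26 times the genome rate, 5.49 to 11.9) and 5 in replicate 2 (3.99 times, interval excluding 1). Its adjusted Poisson p was 3.2e-09 in replicate 1 and 0.297 in replicate 2. Of the 10 highest, 4 belong to the duplicated stretch: Hist1h2ao with 25 and 5 reads in replicates 1 and 2, Hist1h2bq with 23 and 5, Hist1h2ap with 15 and 5, and Hist1h2br with 13 and 5. In Hist2, Hist2h3c1 had 15 and 7 reads, Hist2h2aa1 14 and 7, and Hist2h3b 11 and 7. Hist1h2ai had 20 and 3 reads and Hist1h2bl 21 and 2, from overlapping windows. Hist4h4 was enriched in replicate 1 with 15 reads and had 3 in replicate 2.

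By class, median Jarid1b folds in replicates 1 and 2 were 2.95 and 3.19 for H2A, 2.36 and 2.79 for H2B, 2.95 and 2.40 for H3, 2.66 and 1.60 for H4, and 1.48 and 1.60 for H1. Of 6 H1 promoters 0 were enriched in either replicate, and on pooled reads 2 were (33.3%, against 34.6% of all and 54.0% of promoters with scramble H3K4me3). Among the H1 genes, Hist1h1a had 2 reads in each replicate. With the expectation taken from background of matching base composition, the histone medians were 1.53 and 1.39, against 1.23 and 1.19 over all promoters. At promoters with scramble H3K4me3 the median was 1.35 in each replicate. Of the histone promoters 0 were then enriched in both (0.858% of all). By class the histone medians against this background in replicate 1 were 1.99 for H4, 1.87 for H3, 1.72 for H2A, 1.31 for H2B and 0.80 for H1, an order that differs from that of the uncorrected folds.

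Related genes outside the clusters gave other values. Of 12 replication-independent histone variants, which can be made outside S phase, 9 were compared. In the Jarid1b shRNA library 4 were at least 2-fold higher (24.2% of all compared promoters) and 0 lower (2.41% of all). The median ratio of the 9 was 0.79, against 0.41 over all compared promoters. The 4 were H2afy2 (1.27), H2afv (1.23), H1fx (1.19) and H2afy (1.07). Jarid1b was enriched in both libraries at 3 of the 12 (7.8% of all promoters), H2afy2, H2afz and H1fx. Cenpa, the centromeric H3 variant, had 50 reads in the Jarid1b shRNA library and 144 in the scramble library, a ratio of -0.56. Median GC content was 54.3% at the variants' promoters and 49.4% at the replication-dependent ones. With the GC trend removed the variants' median ratio was 0.06, against 0.38 over all compared promoters. H1fx was then at 0.09, while H2afv, H2afy and H2afy2 were at 1.75, 1.24 and 0.83.

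Of 21 genes for histone gene transcription and mRNA processing, 20 were compared, with 5 higher (24.2% of all compared promoters) and 0 lower (2.41% of all). The median was 0.30, or 0.13 with the GC trend removed, against 0.41 and 0.38 over all compared promoters. The 5 were Ccne2, a cyclin E gene (1.71), the transcription factor gene Yy1 (1.16), Lsm11, of the U7 particle that cuts histone mRNA (1.10), and the cleavage factor genes Cstf2 (1.06) and Sympk (1.06). With the GC trend removed Cstf2 was at 1.34, Lsm11 at 0.88, Ccne2 at 0.44, Sympk at 0.26 and Yy1 at -0.04. Npat, the coactivator of histone genes, had 130 reads in the Jarid1b shRNA library and 216 in the scramble library (0.24), and Slbp, whose product binds the mRNA stem-loop, had 96 and 191 (-0.02). Jarid1b was enriched in both libraries at 4 of the 21 (7.8% of all promoters), Pou2f1, Cpsf3, Ccne1 and Ccne2. Of 19 histone chaperone genes 18 were compared, with 0 higher (24.2% of all compared promoters) and 0 lower (2.41% of all). The median was 0.19, or -0.05 with the GC trend removed. Among the 19, Jarid1b was enriched in both libraries at Hira alone (7.8% of all promoters). Ratios in that list reached 0.88 at Atrx and 0.81 at Nap1l1.

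Of 10 non-histone genes lying within the clusters, 3 were compared. Pom121l2 was higher, with 40 reads in the Jarid1b shRNA library and 32 in the scramble library (1.29), Zfp184 had 71 and 170 (-0.29) and Gm17658 31 and 107 (-0.82). The counts of Gm17658 nearly equal those of the histone gene Hist1h4d, 33 and 109 in the Jarid1b shRNA and scramble libraries. Both had 5 and 2 reads in Jarid1b replicates 1 and 2. The value of Gm17658 may therefore rest on the same reads and is not taken as separate from the histone genes. The other 7 had at most 6 reads in the Jarid1b shRNA library and 8 in the scramble library, among them Prss16, Hfe, Trim38 and 4 Slc17a genes. Kdm5b itself had 159 reads in the Jarid1b shRNA library and 154 in the scramble library, a ratio of 1.02 (0.69 to 1.34).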

How the data were processed

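The deposited files list mapped reads with start and end coordinates, counted here per window; the authors aligned them to mm9 with Bowtie, per the submitters' processing notes, and the sources used here give no version of it. Per the labels' protocols 1 count per position was allowed, MACS called peaks and IgG was used for normalization, but the deposited rows repeat positions (7.56% of the Jarid1b shRNA library, 31.5% of the scramble library, 15.3% and 7.69% of Jarid1b replicates 1 and 2) and hold no peaks. Reads are 35, 34, 34 and 26 bases long in that order. From 2851928, 7530697, 5120111 and 1736183 deposited rows, 1 read per strand and 5′ position on chr1 to chr19, X and Y was kept, unshifted. Enrichment was a one-sided Poisson test and ratios had Clopper-Pearson intervals conditional on the summed reads; Jarid1b folds had exact Poisson intervals. Python 3.11.15, NumPy 2.4.6, SciPy 1.17.1, pandas 2.3.3 and statsmodels 0.14.6 were used, and the scripts were tested on simulated data. Genes named were Kdm5b; the 10 highest mean Jarid1b folds; the 6 highest and 6 lowest ratios; in each class the most and fewest scramble reads; members without H3K4me3; members of Hist2, Hist3 and Hist4; testis members; and extremes of each list. Others were named after their values were seen. Members and lists were chosen with earlier results of these data known.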

Additional observations from a re-analysis of the deposited data

How the results depend on the processing

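No paired analysis was possible because the H3K4me3 groups hold 1 library each and share no replicate pairs. The main median ratio of -0.09 became 0.071 with all rows kept, 0.21 in windows of 500 bases each side, -0.50 scaled to the median ratio (a shift of 0.41), 0.18 scaled to background bins (a shift of -0.27), 0.31 with the GC trend removed and -0.69 at unique positions. Over all compared promoters the median of 0.41 became 0.58 with all rows kept and 0.53 in the 500-base windows. It became 0.68 scaled to background bins and 0.38 with the GC trend removed. The histone median was below the all-promoter median in each of these settings. The cause of the changes was not tested. The count of 0 higher became 2 with all rows kept (32.8% of all), 2 scaled to background bins (34.9% of all), 8 with the GC trend removed (17.2% of all) and 3 at 1.5-fold (38.5% of all). The count of 0 lower became 2 in windows of 500 bases each side (2.69% of all), 6 scaled to the median ratio (8.97% of all), 5 at 1.5-fold (7.97% of all), 1 around the start codon and 11 at unique positions; these last 2 settings were applied to histone promoters only. The count of 0 with Jarid1b in both libraries became 1 with reads shifted 75 bases (7.97% of all), 2 in windows of 500 bases each side (6.06% of all), 10 against the genome rate only (24.8% of all), 37 on pooled reads (34.6% of all) and 1 around the start codon, and 5 (10.5% of all) to 20 (26.8% of all) from 1 replicate alone. The median over members of the mean Jarid1b fold of both libraries, 2.78, became 3.37 in windows of 500 bases each side and 1.59 against GC-matched bins, and 2.36 to 2.40 from 1 replicate. The start-codon and unique-position settings, and leaving out the 6 promoters of the duplicated stretch (median -0.08), were chosen after seeing the data.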
